A study of Caenorhabditis elegans with 11 samples.

Results

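Early embryos of 2 *Caenorhabditis elegans* mutant strains were compared directly, one lacking a normal CXXC subunit and the other the methyltransferase of the same histone H3 lysine 4 (H3K4) methylation complex. The comparison rests on 6 of the 11 RNA-seq libraries of the series, 3 from *cfp-1* and 3 from *set-2* embryos, chosen by the genotype in the sample labels. All genes were taken, and 11547 protein-coding genes of the 46772 identifiers in the count table had enough reads to be tested. The question was what differs in the embryonic transcriptome between loss of the one subunit and loss of the other.

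*cfp-1* embryos carried *cfp-1(tm6369)*, a deletion within the gene that is predicted to leave a shortened protein, and *set-2* embryos carried *set-2(bn129)*. The sample labels give only the mutated gene, and the alleles are those named in the methods of the study. Wild-type (N2) embryos had 3 libraries and are given as a point of orientation, while levels in the 2 libraries of *sin-3* embryos are not described. The libraries of both strains entered the gene filter, the normalization and the statistical model, where they add to the estimate of the spread between replicates. In all strains, young adults were dissolved in hypochlorite and the embryos inside them were frozen, so a library pools many embryos of unequal age. The methods of the study describe them as early-stage embryos, nearly all below a stated number of cells. Polyadenylated RNA was sequenced in stranded libraries. The strains were grown separately and the library labels name no shared culture between them. Libraries were independent biological replicates, and p-values measure the spread between them.

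SET-2 is the *C. elegans* counterpart of the yeast enzyme Set1 and adds methyl groups to H3K4 within a complex called COMPASS. CFP-1 is the subunit that carries a CXXC zinc finger, a domain that in mammals binds unmethylated CG dinucleotides, and it brings the complex to promoters, where trimethylated H3K4 (H3K4me3) marks the start of active genes. In *C. elegans* both proteins are needed for most H3K4me3 in the embryo and for fertility, and CFP-1 also binds the SIN3 histone deacetylase complex. An early embryo first lives on messenger RNA made in the mother's germ line, which is then cleared while the embryo's own genes are switched on.

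The study lists a pair of PCR primers for genotyping *cfp-1*. They are shown because the genotype at this gene defines one arm of the comparison, and where they lie relative to the deletion was not examined here. Both are written 5′ to 3′ and lie on chromosome IV.
cfp-1 F1: aggagtgcacgagccacgta
cfp-1 R1: acacggggcagtttgtgcga

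The 6 libraries held between 23909575 and 35258557 counts, of which 3.72% to 4.78% fell on the 10 most abundant genes. Levels are given as CPM, the counts of a gene scaled to the size of its library, after TMM normalization. The counts are of reads and not of single molecules, so limits that rest on counts cover counting error only. Libraries of one strain were not equally alike. Over the genes tested, *set-2* replicate 2 stood apart from *set-2* replicates 1 and 3, with a chi-square per gene of 88.1 and 101, against 11.5 between replicates 1 and 3. *cfp-1* replicate 1 stood apart less, with 53.6 and 35.9 against 24.5 between *cfp-1* replicates 2 and 3. Counts of genes that rest on these libraries are given with and without them.

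The transcript of each mutated gene was reduced in its own strain. *cfp-1* (chromosome IV, 14077435 to 14083568, WBcel235) had 41.8, 52.0 and 53.95 CPM in *cfp-1* embryos, 141, 111 and 150 CPM in *set-2* embryos and 141, 148 and 149 CPM in wild-type embryos. Its log2 fold change, *cfp-1* minus *set-2*, was -1.45 (SE 0.13, adjusted p = 9.84e-05 from the quasi-likelihood test of edgeR, adjusted after Benjamini and Hochberg over all genes tested, as for all adjusted p-values here). *set-2* (chromosome III, 4922427 to 4930204) had 276, 295 and 277 CPM in *cfp-1* embryos, 86.3, 160 and 88.9 CPM in *set-2* embryos and 342, 281 and 344 CPM in wild-type embryos. The difference was 1.34 on the log2 scale (SE 0.20, adjusted p = 0.00184). The strains did not overlap for either gene, as for 36.5% of all genes tested, and *set-2* replicate 2 kept more *set-2* transcript than the other 2 *set-2* libraries. Counts were summed over a whole gene, so they do not show which exons were read.

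The other subunits of the complex differed little between the 2 mutants. Of all genes tested 22.0% were called different, that is, had an adjusted p under 0.05. *wdr-5.2*, a WD40-repeat protein related to the core subunit WDR-5.1, was the only other of the 10 members called. It had 34.7, 37.4 and 33.2 CPM in *cfp-1* embryos and 25.4, 27.7 and 24.9 CPM in *set-2* embryos, a difference of 0.43 (SE 0.11, adjusted p = 0.0167) whose call was lost without *set-2* replicate 1 (0.41). The core subunits *wdr-5.1*, *ash-2*, *rbbp-5* and *dpy-30* had differences of 0.13, 0.13, 0.00 and 0.12, and *hcf-1*, *swd-2.1* and *wdr-5.3* of -0.08, 0.09 and 0.33, none past the test. None of the 5 SIN3 complex genes was called, with differences from -0.16 for the deacetylase *hda-1* to 0.26 for the PHD finger gene *athp-1*. *mrg-1*, a chromodomain member of that complex (0.24), was called without *cfp-1* replicate 1 (0.31).

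Among 9 listed genes linked to H3K4 methylation outside the complex, 2 (22.2%) were called, near the 22.0% of all genes tested. Both were higher in *cfp-1* embryos, while 3 of the 9 lay above 0 and the median log2 difference was -0.07. *lsd-1*, whose product is related to the H3K4 demethylase LSD1, had 107, 114.9 and 119.4 CPM in *cfp-1* embryos, against 72.0, 83.7 and 77.7 CPM in *set-2* embryos (log2 difference 0.55, SE 0.09, adjusted p = 0.00342). *set-17*, which encodes another H3K4 methyltransferase of the germ line, had 120, 127 and 145 CPM, against 88.0, 73.5 and 90.6 CPM (0.64, SE 0.12, adjusted p = 0.00418). Wild-type embryos had 97.2 to 105 CPM for *lsd-1* and 90.2 to 107 CPM for *set-17*, with means between those of the mutants.

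**Figure D1:**
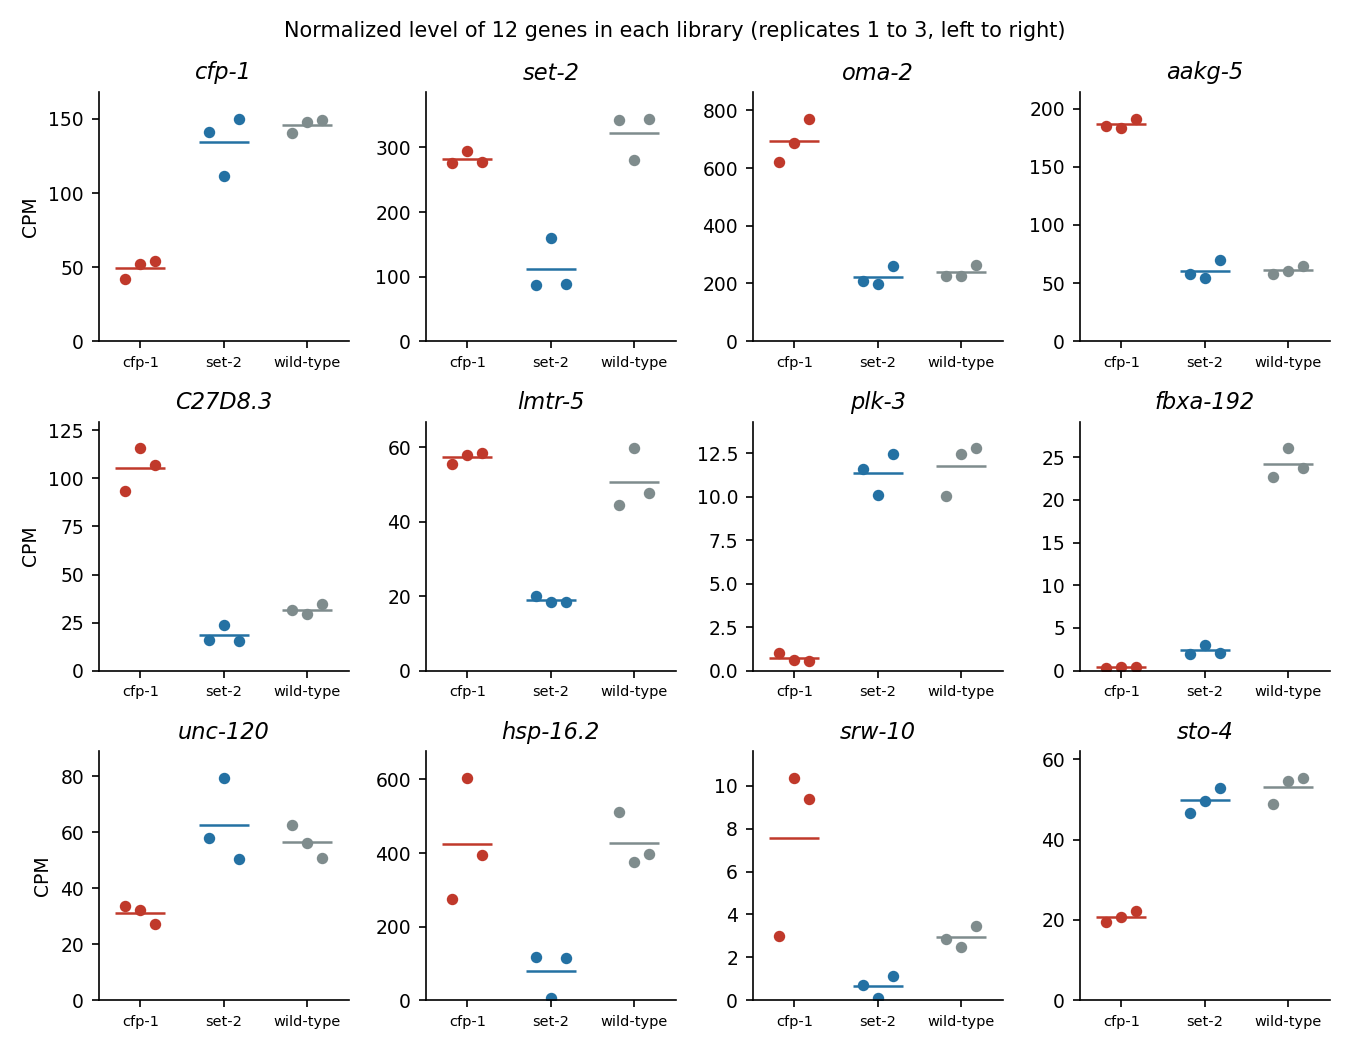
Level of 12 named genes in each library, in CPM on a linear axis from 0, with *cfp-1*, *set-2* and wild-type libraries from left to right and a bar at each mean. *cfp-1* and *set-2* are each lowest in their own mutant, *plk-3* is at or below 0.987 CPM in *cfp-1* libraries only, and *hsp-16.2* is at 5.26 CPM in *set-2* replicate 2.

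Of the 11547 genes tested, 2535 differed between the 2 mutants. In *cfp-1* embryos 1397 genes (12.1%) were higher and 1138 (9.86%) lower than in *set-2* embryos. The differences were mostly moderate, with a median fold of 1.60 among the genes higher in *cfp-1* embryos and 1.73 among those lower, and 418 (29.9%) and 375 (32.95%) of them reached 2-fold. The 3 libraries of one strain lay wholly outside the range of the other for 94.9% of the genes higher and 98.4% of those lower. Of all genes tested 36.5% had no overlap. The called genes were picked by a test on the same libraries, so their higher shares follow from the selection and add no support.

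The genes higher in *cfp-1* embryos had a median mean level of 43.6 CPM, and those lower 14.3 CPM, against 25.3 CPM for all genes tested. Their median exon lengths were 1509 and 1462 bases, against 1461 bases for all. Chromosome X had the lowest share of genes higher in *cfp-1* embryos, 8.32% of 1551, with 10.8% lower and a median log2 difference of -0.14. On chromosome I 13.7% were higher and 8.37% lower. Within 1 Mb of *cfp-1* 25.8% of 190 genes were called, and within 1 Mb of *set-2* 17.9% of 368. Within 2 Mb the shares were 25.5% of 337 and 20.2% of 635, against 22.0% of all genes tested. Whether the DNA around either mutated gene differs between the strains was not examined.

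The split between the directions depended on the scaling, since 40.8% of the calls were higher in *cfp-1* embryos with upper-quartile normalization and 55.1% with TMM. It also depended on single libraries. Without *cfp-1* replicate 3 there were 537 genes higher and 287 lower, without *set-2* replicate 1 there were 717 and 526, and without *set-2* replicate 2 there were 1131 and 689. Without both *set-2* replicate 2 and *cfp-1* replicate 1 there were 1832 and 1056. A fit of the *cfp-1* and *set-2* libraries alone called 680 and 616, and a covariate for embryo age called 4 and 6. A block by the number in the sample titles over 11 libraries, which leaves 2 residual degrees of freedom, called 5 and 4. A block by replicate number over the 6 libraries also leaves 2 and called 1344 and 1760. No gene was called in the opposite direction in any of these fits.

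**Figure D2:**
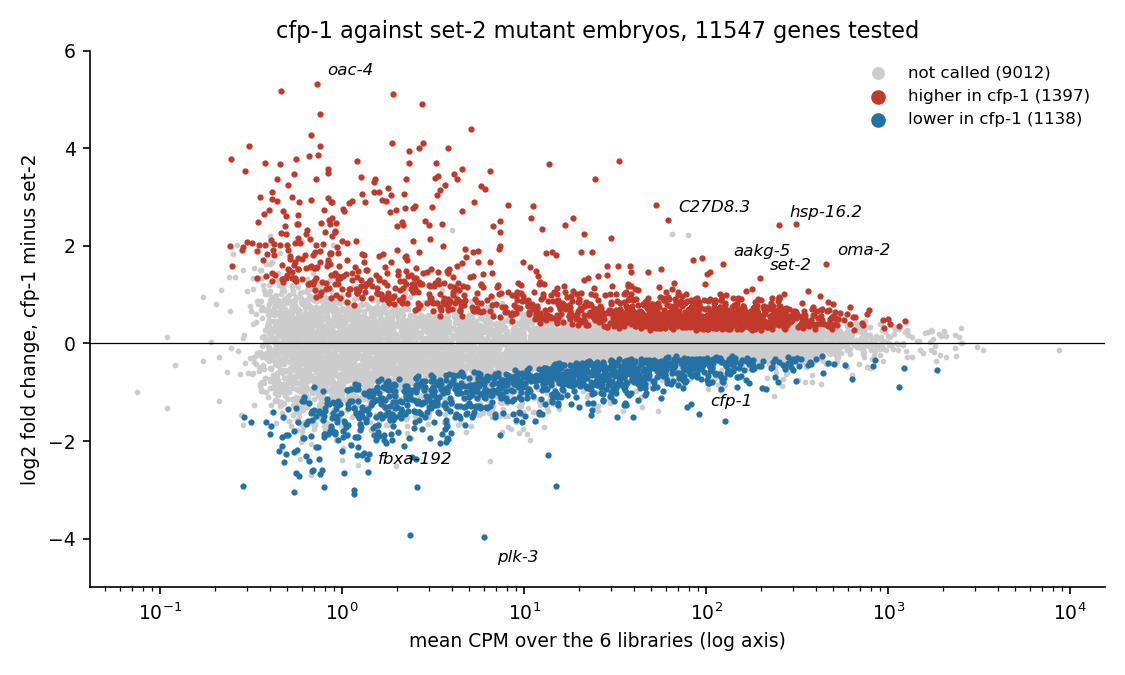
Log2 fold change, *cfp-1* minus *set-2*, of each of the 11547 genes tested against its mean CPM over the 6 libraries on a log axis, with the 1397 genes higher in *cfp-1* embryos and the 1138 lower marked by colour. Called genes lie on both sides of 0 over most of the range, and *plk-3*, at -3.96, has the lowest value.

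Wild-type libraries add to the estimate of the spread, but the mean levels in wild-type embryos do not enter this contrast. They lay between the 2 mutant means for 961 of the genes higher in *cfp-1* embryos (68.8%) and 687 of those lower (60.4%). Among all genes tested the share was 35.6%, which is not a like baseline. Called genes were selected for a wide gap between the 2 means, with median folds of 1.60 and 1.73, against 1.23 for all genes tested. A wild-type mean falls inside a wider gap more often. The wild-type mean was nearer to the *set-2* mean for 63.8% of the genes higher and 63.6% of those lower, against 54.01% of all genes. It lay beyond the *set-2* mean for 22.1% of the genes higher and 27.4% of those lower, against 34.9% of all genes. Beyond the *cfp-1* mean it lay for 9.09% and 12.2%, against 29.5%. In both positions the 2 mutants deviated from wild-type on the same side. The shares over all genes are not a like baseline here either, for the same reason.

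Most listed transcripts that the oocyte hands to the embryo were higher in *cfp-1* embryos, and a part of the listed genes that switch on in the embryonic lineages were lower. Among all genes tested 12.1% were higher and 9.86% lower in *cfp-1* embryos, with a median log2 difference of -0.002. Of 38 oocyte and maternal genes tested, 30 (78.9%) were higher in *cfp-1* embryos, none was lower and 8 were not called, with a median of 0.60. Of 39 zygotic lineage factors, 17 (43.6%) were lower, none was higher and 22 were not called, with a median of -0.37. Without *cfp-1* replicate 3 these counts were 16 and 7, without *set-2* replicate 1 they were 19 and 10, and without *set-2* replicate 2 they were 25 and 7. Without both *set-2* replicate 2 and *cfp-1* replicate 1 they were 31 and 14.

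The largest change among maternal genes was in *oma-2*, which encodes a zinc finger protein needed for oocyte maturation. It had 621, 686 and 771 CPM in *cfp-1* embryos, 207, 199 and 261 CPM in *set-2* embryos and 226, 225 and 264 CPM in wild-type embryos. The *cfp-1* libraries stood alone, and the *set-2* and wild-type ranges overlapped (log2 difference 1.64, SE 0.14, adjusted p = 4.42e-05). *egg-3*, an egg activation gene, had 158, 146 and 165 CPM in *cfp-1* embryos, against 78.1, 80.5 and 93.7 CPM in *set-2* embryos (0.89, SE 0.10, adjusted p = 0.000501). Wild-type embryos had 52.5 to 60.6 CPM, below both mutants.

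Other maternal genes are named here after their values were seen. *cpg-2*, which encodes a proteoglycan of the eggshell, had 114, 153 and 194 CPM in *cfp-1* embryos, against 52.2, 44.1 and 69.7 CPM in *set-2* embryos (1.47, SE 0.21, adjusted p = 0.00147). *lin-41*, a regulator of translation in growing oocytes, had 19.5, 64.4 and 64.5 CPM, against 13.7, 16.4 and 19.2 CPM (1.59, SE 0.34, adjusted p = 0.00959), so that *cfp-1* replicate 1 lay just above the *set-2* range and the other *cfp-1* libraries far above it. The translational repressor *gld-1* was higher by 0.98, *skn-1*, which specifies blastomere fate, by 0.74 and the Notch receptor gene *glp-1* by 0.59. The RNA-binding proteins *mex-5*, *pos-1* and *spn-4*, which pattern the early embryo, were higher by 0.49, 0.46 and 0.35, and the germline factor *pie-1* by 0.90. These last 4 calls were not firm. Those of *pos-1* and *spn-4* were each lost in 8 of the 11 fits that left out 1 library, with differences of 0.32 to 0.60 and 0.29 to 0.42. That of *pie-1* was lost in 3, without *cfp-1* replicate 2 (0.71), *cfp-1* replicate 3 (0.82) or *set-2* replicate 1 (0.89), and that of *mex-5* in 2, without *cfp-1* replicate 3 (0.47) or *set-2* replicate 1 (0.37). With a score of embryo age as a covariate, explained with its values after the zygotic genes, *lin-41*, *pie-1* and *pos-1* changed direction, to -0.66, -0.48 and -0.17. That score is itself built from the maternal list and did not overlap between the strains. It takes up part of the strain difference in maternal genes by construction, so no conclusion is drawn from these changes. *mbk-2*, a kinase that marks oocyte proteins for removal, and *atx-2*, a germline regulator of translation, did not pass the test (0.12 and -0.12).

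Some zygotic factors of muscle, epidermis and intestine were lower in *cfp-1* embryos. *unc-120*, which encodes the muscle transcription factor related to SRF, had 33.8, 32.3 and 27.4 CPM in *cfp-1* embryos, 57.9, 79.5 and 50.4 CPM in *set-2* embryos and 62.8, 56.0 and 50.9 CPM in wild-type embryos (2.01-fold lower in *cfp-1* embryos than in those of *set-2*, adjusted p = 0.00233). *elt-1*, the GATA factor of the epidermis, had 104, 86.1 and 79.4 CPM in *cfp-1* embryos, against 139, 182 and 139 CPM in *set-2* embryos (-0.78, SE 0.13, adjusted p = 0.00275). For both genes the *cfp-1* libraries lay below all *set-2* and wild-type libraries.

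The following were named after their values were seen. *elt-2*, the GATA factor of the intestine, had 10.98, 11.3 and 10.9 CPM in *cfp-1* embryos, against 21.7, 25.32 and 17.5 CPM in *set-2* embryos (-0.96, SE 0.16, adjusted p = 0.00309). *hlh-1*, the MyoD counterpart, differed by -0.67 (SE 0.12, adjusted p = 0.00418), and *pha-4*, the FoxA factor of the pharynx, by -0.67 (SE 0.20, adjusted p = 0.0311), with the call of *pha-4* lost without *cfp-1* replicate 3 (-0.58) or *set-2* replicate 2 (-0.36). Factors that act in the first zygotic divisions did not pass the test. The endoderm GATA factors *end-1* and *end-3* differed by -0.23 and -0.10, the T-box genes *tbx-37* and *tbx-35* by 0.06 and 0.10, and *pal-1*, which is also supplied by the mother, by 0.30.

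**Figure D3:**
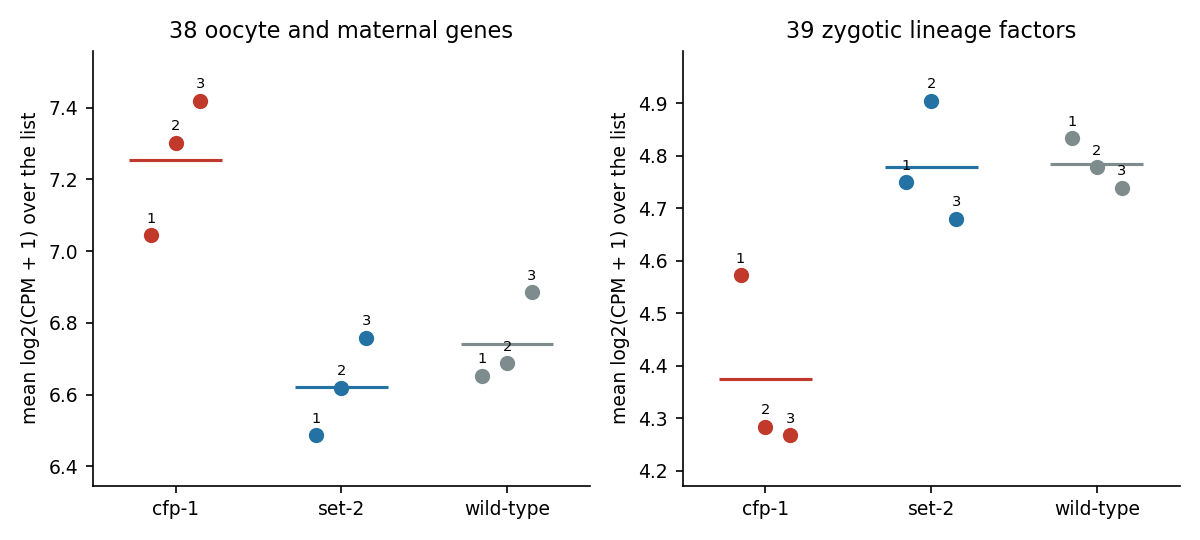
Mean log2(CPM + 1) of the oocyte and maternal list and of the zygotic lineage list in each library, *cfp-1*, *set-2* and wild-type from left to right. The maternal mean is 7.05 to 7.42 in *cfp-1*, 6.49 to 6.76 in *set-2* and 6.65 to 6.89 in wild-type libraries, and the zygotic mean 4.27 to 4.57, 4.68 to 4.90 and 4.74 to 4.83.

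The 2 lists give a score of embryo age, the mean log2(CPM + 1) of the zygotic list minus that of the maternal list. The score was -2.47, -3.02 and -3.15 in *cfp-1* libraries, -1.74, -1.72 and -2.08 in *set-2* libraries and -1.82, -1.91 and -2.15 in wild-type libraries. The mean score was -2.88 ± 0.36 for *cfp-1* embryos, -1.84 ± 0.20 for *set-2* embryos and -1.96 ± 0.17 for wild-type embryos (SD, n = 3 each), so the 2 mutants did not overlap. Strain and a difference in the age of the embryos collected therefore cannot be told apart over these libraries. In bulk RNA, fewer cells of a type and less RNA per cell cannot be told apart either. For reproduction genes lower in the mutants, the study proposes that inherited maternal transcripts were altered in the germ line. A change of maternal RNA in the germ line would also move the score, and this was not tested. With the score as a covariate the standard errors grew by 2.07 times, and the calls fell to 4 genes higher and 6 lower in *cfp-1* embryos (891 at an unadjusted p under 0.05). Those still higher were *aakg-5*, *F58G1.2*, *fbxa-95* and *F42A9.6*, and those still lower were *cfp-1* itself, *plk-3*, *slc-25A18.2*, *sto-4*, *dmd-9* and *bath-1*.

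Marker lists of stages and tissues were summed per library beside these results. Called shares over all genes tested were 12.1% higher and 9.86% lower in *cfp-1* embryos. All 10 oocyte and maternal marker genes were higher in *cfp-1* embryos, with a summed level of 5771 to 6402 CPM in *cfp-1* libraries, 3763 to 4587 CPM in *set-2* libraries and 3911 to 4914 CPM in wild-type libraries. Of 10 early embryo markers tested, 3 were lower in *cfp-1* embryos, and their summed levels were 477 to 561, 555 to 629 and 563 to 590 CPM. The 6 cuticle markers summed to 8.59 to 24.3 CPM in *cfp-1*, 22.9 to 50.3 CPM in *set-2* and 9.57 to 29.9 CPM in wild-type libraries, and 3 of them had 3 counts or fewer in all 6 mutant libraries. The 6 markers of differentiated muscle summed to 16.1 to 43.1, 29.3 to 102 and 10.1 to 46.0 CPM, with *set-2* replicate 2 highest, and none was called. The 8 sperm markers summed to 0.759 to 1.58, 1.43 to 1.53 and 2.01 to 3.79 CPM, and the 6 vitellogenins, markers of the adult intestine, to 1.77 to 2.45, 1.79 to 3.17 and 0.906 to 1.51 CPM. The 6 neuronal markers summed to 366 to 421, 338 to 365 and 341 to 397 CPM, with 1 called lower in *cfp-1* embryos. The part of older embryos or larvae in the differences was not tested.

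Genes of the germ line other than those of the maternal list were also more often higher than lower. Of 27 genes of meiosis 11 (40.7%) were higher in *cfp-1* embryos and none lower, against 12.1% and 9.86% of all genes tested. The median log2 difference of the 27 genes was 0.40. *syp-2*, a component of the synaptonemal complex that joins paired chromosomes, had 45.4, 43.6 and 57.4 CPM in *cfp-1* embryos, 24.3, 18.2 and 27.5 CPM in *set-2* embryos and 18.4, 20.4 and 19.9 CPM in wild-type embryos (1.06, SE 0.16, adjusted p = 0.00184). *zim-1*, a zinc finger protein of chromosome pairing centres, had 91.6, 110 and 118 CPM, against 59.2, 45.0 and 69.6 CPM (0.88, SE 0.15, adjusted p = 0.00346). The *cfp-1* libraries of both genes lay above every *set-2* and wild-type library. The meiosis count was 7 without *cfp-1* replicate 3.

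Of 51 genes of P granules and small RNA pathways 15 (29.4%) were higher in *cfp-1* embryos and 1 (1.96%) was lower, with a median of 0.26. Shares over all genes tested were 12.1% and 9.86%. The number higher was 3 when *cfp-1* replicate 3 was left out and 7 when *set-2* replicate 1 was, with 23 without both *set-2* replicate 2 and *cfp-1* replicate 1. *pgl-3*, a P granule scaffold, had 42.6, 44.2 and 67.4 CPM in *cfp-1* embryos, 22.5, 26.4 and 27.6 CPM in *set-2* embryos and 15.2, 14.1 and 16.9 CPM in wild-type embryos (1.01, SE 0.17, adjusted p = 0.00307). *hrde-1*, a nuclear Argonaute of inherited silencing, had 257, 325 and 326 CPM in *cfp-1* embryos, against 126, 187 and 165 CPM in *set-2* embryos (0.93, SE 0.16, adjusted p = 0.00324). The Argonautes *prg-1* and *csr-1* and the P granule gene *pgl-1*, named after their values were seen, were higher by 0.70, 0.45 and 0.94. The calls of *csr-1* and *pgl-1* were lost without *cfp-1* replicate 3 (0.37 and 0.81), and that of *csr-1* also without *set-2* replicate 1 (0.36), and with the embryo age covariate these 2 genes were at -0.0273 and -0.37. The one gene lower, *mut-15*, which acts in small RNA amplification, differed by -0.37 (SE 0.09, adjusted p = 0.0161), a call lost without *cfp-1* replicate 3 (-0.39).

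Proteasome subunits that passed the test were all higher in *cfp-1* embryos. Of 33 tested, 14 (42.4%) were higher in *cfp-1* embryos, none was lower and 19 were not called, with a median log2 difference of 0.45. Shares over all genes tested were 12.1% higher and 9.86% lower. *pbs-2*, a catalytic-core beta subunit, had 241, 311 and 328 CPM in *cfp-1* embryos, 177, 141.6 and 196 CPM in *set-2* embryos and 180, 232 and 241 CPM in wild-type embryos (0.77, SE 0.16, adjusted p = 0.00694). *pbs-1*, another beta subunit, had 350, 363 and 419 CPM in *cfp-1* embryos, against 248, 198 and 271 CPM in *set-2* embryos (0.66, SE 0.14, adjusted p = 0.0098). In both, *cfp-1* replicate 1 was the lowest *cfp-1* library and *set-2* replicate 2 the lowest *set-2* library. The regulatory subunits *rpn-1* and *rpt-1*, named after their values were seen, were higher by 0.64 and 0.56. With the embryo age score as a covariate no proteasome gene was called, and *pbs-2*, *rpn-1* and *rpt-1* turned to -0.0180, -0.22 and -0.0514. The calls of *pbs-1*, *rpn-1* and *rpt-1* were lost without *cfp-1* replicate 3 (0.58, 0.48 and 0.48). The count of proteasome genes depended on single libraries, with 5 higher without *cfp-1* replicate 2, 1 without *cfp-1* replicate 3, 5 without *set-2* replicate 1 and 6 without *set-2* replicate 2, against 18 without both *set-2* replicate 2 and *cfp-1* replicate 1.

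Ribosomal and translation genes differed less. Of 80 cytoplasmic ribosomal protein genes 8 (10.0%) were higher in *cfp-1* embryos and 1 (1.25%) was lower, against 12.1% and 9.86% of all genes tested. The median of the list was 0.12. The number higher was between 2, with *cfp-1* replicate 3 left out, and 5 when any one of the *cfp-1* libraries, *set-2* replicate 1 or 3 or either *sin-3* library was left out. It was 11 without *set-2* replicate 2 and 15 with DESeq2. *rpl-28* had 159, 168 and 156 CPM in *cfp-1* embryos, 114, 115 and 122 CPM in *set-2* embryos and 184, 214 and 218 CPM in wild-type embryos (0.46, SE 0.10, adjusted p = 0.00793), so that both mutants lay below wild-type. Of 73 translation factors and tRNA synthetases 7 (9.59%) were higher and 5 (6.85%) lower, and of 65 mitochondrial ribosomal proteins 2 (3.08%) were higher and 1 (1.54%) lower. Translation genes gave 2 higher and 2 lower without *cfp-1* replicate 3, with *set-2* replicate 1 left out 4 higher and 2 lower, and 3 lower without *cfp-1* replicate 2. Mitochondrial ribosomal genes gave 4 higher without *cfp-1* replicate 2, and 7 lower without *cfp-1* replicate 1 or 3 without *set-2* replicate 2. The synthetase gene *nars-1* was higher in *cfp-1* embryos by 0.54 (SE 0.09), and *ears-2* was lower (-0.93, SE 0.20).

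**Figure D4:**
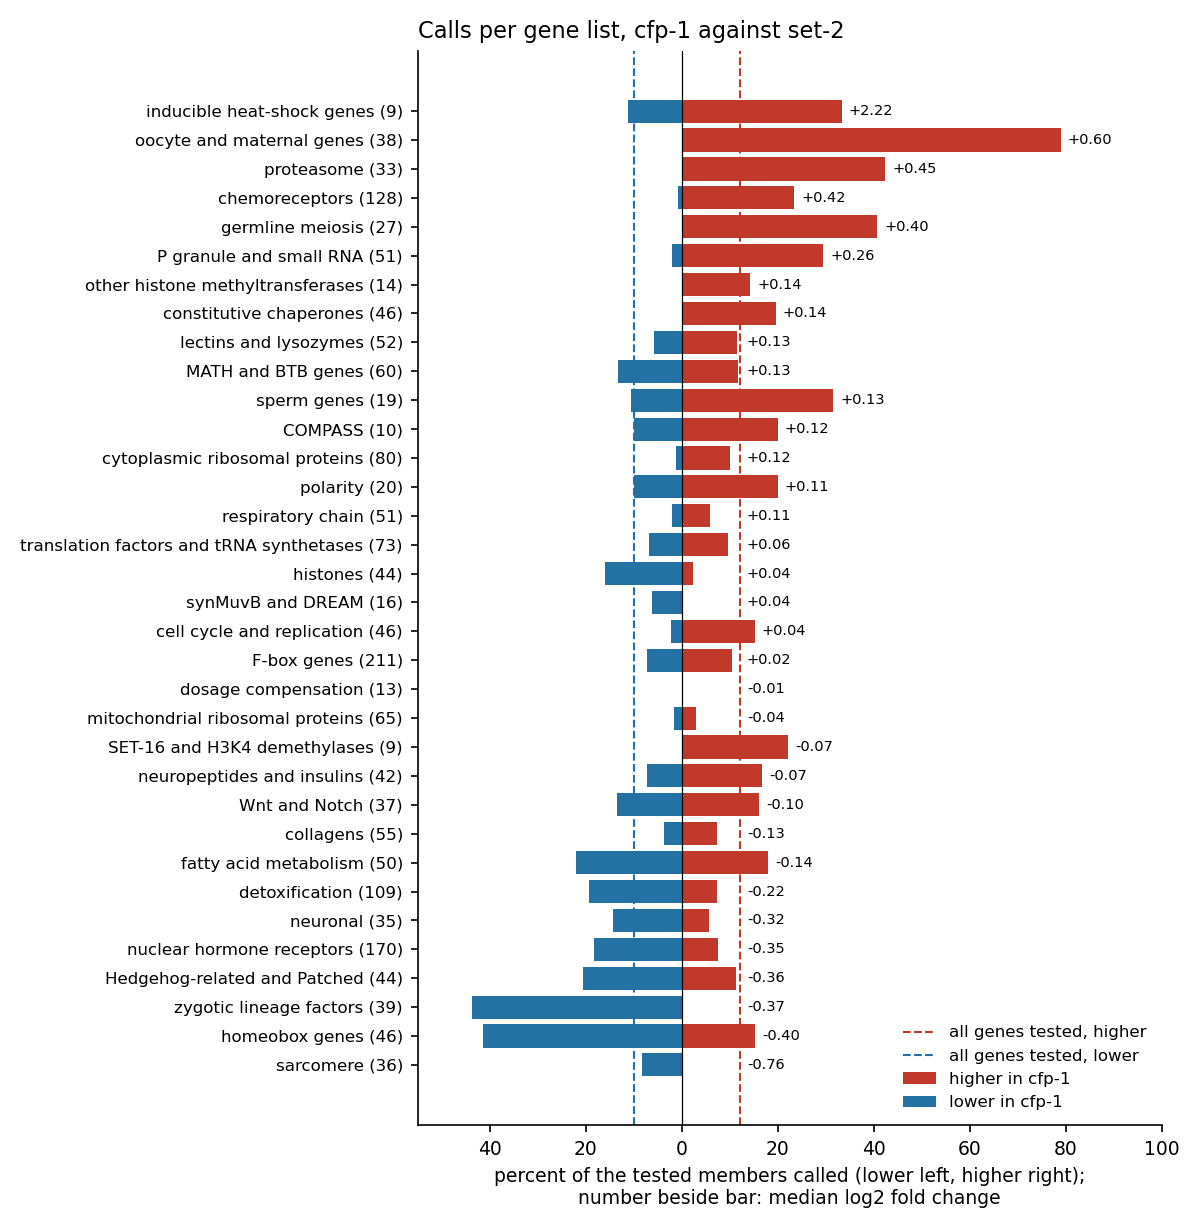
Percent of the tested members of each gene list called higher (right) or lower (left) in *cfp-1* relative to *set-2* embryos, with the median log2 fold change beside each bar and dashed lines for all genes tested (12.1% higher and 9.86% lower). The oocyte and maternal list has 78.9% higher and the zygotic lineage and homeobox lists have 43.6% and 41.3% lower.

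Homeobox genes, nuclear hormone receptors and detoxification genes were more often lower than higher in *cfp-1* embryos. Among all genes tested 12.1% were higher and 9.86% lower. Of 55 collagens 4 were higher (7.27%) and 2 lower (3.64%), with 26 above 0. Leaving out 1 library gave 4 to 5 collagens higher and 0 to 10 lower, so their balance was not firm. Of 42 neuropeptides and insulins 7 were higher (16.7%) and 3 lower (7.14%), with 17 above 0. Leaving out 1 library gave 1 to 8 of them higher and 1 to 3 lower. Of 46 homeobox genes, which encode regulators of position and cell fate, 19 were lower and 7 higher, with a median of -0.40. The count lower was 11 without *cfp-1* replicate 2, 4 without *cfp-1* replicate 3 and 7 without either *set-2* replicate 1 or *set-2* replicate 2. *ceh-43*, related to Distal-less and active in the anterior of the embryo, had 105, 84.7 and 82.1 CPM in *cfp-1* embryos, 163, 165 and 143 CPM in *set-2* embryos and 154, 159 and 130 CPM in wild-type embryos (-0.79, SE 0.12, adjusted p = 0.00184). *ceh-13*, the labial-class Hox gene, had 65.2, 50.9 and 46.0 CPM in *cfp-1* embryos, against 87.1, 99.4 and 77.8 CPM in *set-2* embryos (-0.70, SE 0.14, adjusted p = 0.00649). *ceh-21*, a ONECUT-class gene, went the other way, with 145, 131 and 137 CPM in *cfp-1* embryos, against 76.6, 90.9 and 82.8 CPM in *set-2* embryos (0.72, SE 0.09, adjusted p = 0.00092).

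Of 170 nuclear hormone receptor genes 31 (18.2%) were lower in *cfp-1* embryos and 13 (7.65%) higher, with a median of -0.35. Among all genes tested 9.86% were lower and 12.1% higher. The count of receptor genes lower was 20 without *cfp-1* replicate 2, 10 without *cfp-1* replicate 3 and 16 with *set-2* replicate 1 left out. *nhr-31*, which acts in excretory cell growth, had 4.28, 3.84 and 3.93 CPM in *cfp-1* embryos, 9.64, 10.2 and 7.94 CPM in *set-2* embryos and 5.83, 4.70 and 4.88 CPM in wild-type embryos (-1.20, SE 0.17, adjusted p = 0.00162). Of 109 detoxification genes 21 (19.3%) were lower and 8 (7.34%) higher, with a median of -0.22. Of these 109 genes 4 were lower when *cfp-1* replicate 3 was left out, 9 when *set-2* replicate 1 was. Among them *ugt-61*, a glucuronosyltransferase gene, had 5.85, 6.92 and 5.09 CPM in *cfp-1* embryos, against 13.1, 13.7 and 11.2 CPM in *set-2* embryos (-1.09, SE 0.18, adjusted p = 0.00255). The *cfp-1* libraries of both genes lay below every *set-2* and wild-type library. Against wild-type in the same model, *nhr-31* differed by -0.35 in *cfp-1* and 0.85 in *set-2* embryos, and *ugt-61* by -0.71 and 0.38. Only the *set-2* difference of *nhr-31* and the *cfp-1* difference of *ugt-61* passed the test.

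Most histone genes did not pass the test. Of 44 tested 7 (15.9%) were lower in *cfp-1* embryos, 1 (2.27%) was higher and 36 were not called. Shares over all genes tested were 9.86% lower and 12.1% higher, and 4 histone genes were lower without *cfp-1* replicate 3. The linker histone H1 gene *hil-2* had 556, 464 and 400 CPM in *cfp-1* embryos, 710, 964 and 693 CPM in *set-2* embryos and 641, 687 and 629 CPM in wild-type embryos (-0.74, SE 0.15, adjusted p = 0.00826). *hil-3* had 259, 246 and 184 CPM in *cfp-1* embryos, against 347, 475 and 345 CPM in *set-2* embryos (-0.76, SE 0.16, adjusted p = 0.00841). The linker histones *his-24* and *hil-5*, named after their values were seen, were lower by 0.55 and 0.49 in *cfp-1* embryos, the call of *his-24* being lost without *cfp-1* replicate 3 (-0.47). The others lower were *hil-6*, *his-35* and *his-37* (-0.83, -0.53 and -0.75), also named after their values were seen. *his-74*, a variant of histone H3.3, was the gene that was higher, with 226 ± 28.5 CPM in *cfp-1* embryos, 106.5 ± 12.2 CPM in *set-2* embryos and 134 ± 18.7 CPM in wild-type embryos (SD, n = 3 each, log2 difference 1.09, SE 0.13, adjusted p = 0.000681). *htz-1*, the H2A.Z gene, did not pass the test (0.03). Most core histone transcripts have no poly(A) tail, so poly(A) libraries measure them poorly.

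The genes with the smallest p-values had narrow spreads in both strains. *aakg-5* (chromosome II, 9971035 to 9975125), which encodes a regulatory gamma subunit of AMP-activated kinase, had 185, 184 and 192 CPM in *cfp-1* embryos, 57.5, 54.2 and 69.6 CPM in *set-2* embryos and 57.5, 60.1 and 65.0 CPM in wild-type embryos (1.63, SE 0.11, adjusted p = 1.3e-05). *F58G1.2*, with no role given here, had 73.0, 65.1 and 71.8 CPM in *cfp-1* embryos, against 23.8, 26.8 and 24.98 CPM in *set-2* embryos and 29.2, 26.9 and 29.1 CPM in wild-type embryos (1.47, SE 0.10, adjusted p = 1.3e-05). For these genes *set-2* embryos were near wild-type and *cfp-1* embryos apart from both. *lmtr-5*, which encodes a subunit of the lysosomal Ragulator complex, had the opposite arrangement, with 55.5, 57.9 and 58.3 CPM in *cfp-1* embryos, 20.1, 18.4 and 18.4 CPM in *set-2* embryos and 44.4, 59.7 and 47.8 CPM in wild-type embryos (1.59, SE 0.12, adjusted p = 2.61e-05). Its difference from wild-type in the same model was 0.18 in *cfp-1* and -1.42 in *set-2* embryos. *lmtr-5* lies on chromosome III (3183677 to 3185241), as *set-2* does, and the part of DNA near the mutated gene was not tested.

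Among genes lower in *cfp-1* embryos, *sto-4*, which encodes a stomatin-like membrane protein, had 19.4, 20.8 and 22.2 CPM in *cfp-1* embryos, 46.7, 49.6 and 52.9 CPM in *set-2* embryos and 49.0, 54.6 and 55.4 CPM in wild-type embryos (-1.26, SE 0.11, adjusted p = 5.08e-05). *B0261.8* had 20.6, 19.1 and 22.3 CPM in *cfp-1* embryos, against 59.9, 63.99 and 52.6 CPM in *set-2* embryos and 40.9, 39.8 and 35.05 CPM in wild-type embryos (-1.51, SE 0.12, adjusted p = 2.94e-05). It therefore lay on opposite sides of wild-type in the 2 mutants.

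The 2 largest decreases, in *plk-3* and *slc-25A18.2*, were in a block of 3 genes on chromosome IV, between 7470860 and 7476182. *plk-3*, which encodes a polo-like kinase, had 0.987, 0.591 and 0.578 CPM in *cfp-1* embryos, 11.6, 10.1 and 12.4 CPM in *set-2* embryos and 10.1, 12.4 and 12.8 CPM in wild-type embryos. The difference of -3.96 (SE 0.23, adjusted p = 6.49e-06) is 15.5-fold. *slc-25A18.2*, whose product belongs to the family of mitochondrial carriers, had 0.329, 0.295 and 0.231 CPM in *cfp-1* embryos, against 5.05, 3.65 and 4.603 CPM in *set-2* embryos (-3.93, SE 0.27, adjusted p = 1.3e-05). Between them lies *F55G1.6*, with 5.196, 2.53 and 2.70 CPM in *cfp-1* embryos, against 27.03, 22.3 and 30.4 CPM in *set-2* embryos (-2.92, SE 0.25, adjusted p = 5.08e-05). All 3 genes were close to wild-type in *set-2* embryos, with differences of -0.05, 0.38 and 0.02.

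Such blocks occurred elsewhere. Taking neighbouring tested genes that were all called in one direction and differed at least 2-fold, 19 runs of at least 3 genes were found, and the genes in them were named after their values were seen. One run on chromosome II, from 1923137 to 1927347, held *F52C6.4*, *F52C6.3* and *F52C6.2*, which were lower in *cfp-1* embryos by 2.93, 2.61 and 2.29 on the log2 scale. *F52C6.2* had 4.64, 3.71 and 5.32 CPM in *cfp-1* embryos, 23.8, 16.4 and 26.7 CPM in *set-2* embryos and 16.8, 23.3 and 20.8 CPM in wild-type embryos. Another run on chromosome IV, from 12706700 to 12720997, held *C27D8.3*, *C27D8.2*, *C27D8.1* and *idpp-7*, which were higher in *cfp-1* embryos by 2.53, 1.15, 1.81 and 3.06. *C27D8.3* had 93.6, 116 and 107 CPM in *cfp-1* embryos, 15.8, 23.8 and 15.3 CPM in *set-2* embryos and 31.7, 29.2 and 34.5 CPM in wild-type embryos (SE 0.17, adjusted p = 1.3e-05). This run lies on the chromosome of *cfp-1* (14077435 to 14083568), and the part of DNA near the mutated gene was not tested. Reads of neighbours that overlap on one strand can be hard to assign, and this was not tested.

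Some of the largest increases were in genes near the detection limit of 3 counts per library. *oac-4* (chromosome II, 3833250 to 3836015), related to O-acyltransferases, had 47, 32 and 35 counts in *cfp-1* libraries and 3, 0 and 0 counts in *set-2* libraries. Its level was at least 14.96-fold that of *set-2* embryos, computed against 3 counts in each *set-2* library, and it had 0.638 to 0.886 CPM in wild-type embryos. *M70.1* had 2.17, 7.002 and 6.86 CPM in *cfp-1* embryos, 0.152, 0.0746 and 0.269 CPM in *set-2* embryos and 3.71, 2.18 and 3.10 CPM in wild-type embryos (4.91, SE 0.57, adjusted p = 0.000461). *col-52*, a collagen gene, had 1.35, 5.104 and 4.28 CPM in *cfp-1* embryos, against 0.243, 0.0373 and 0.296 CPM in *set-2* embryos (4.11, SE 0.58, adjusted p = 0.00147). In the last 2 genes *cfp-1* replicates 2 and 3 were the high libraries and *set-2* replicate 2 the lowest.

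Genes for chemoreceptors, the seven-transmembrane receptors of sensory neurons, were more often higher than lower in *cfp-1* embryos. Of 128 tested members 30 (23.4%) were higher in *cfp-1* embryos and 1 (0.78%) lower, with a median of 0.42. Shares over all genes tested were 12.1% and 9.86%. The other 1173 listed receptor genes had too few counts to be tested. There were 17 higher when *cfp-1* replicate 3 was left out and 19 when *set-2* replicate 1 was. Summed over all 1301 listed members, tested or not, the level was 257 to 271 CPM in *cfp-1* libraries and 181 to 185 CPM in *set-2* libraries. No library was apart from the others of its strain. Wild-type libraries had 139 to 150 CPM, so both mutants lay above wild-type in this sum. *srg-34* had 3.42, 4.51 and 2.97 CPM in *cfp-1* embryos, against 0.578, 0.224 and 1.08 CPM in *set-2* embryos and 2.75 to 3.58 CPM in wild-type embryos (2.48, SE 0.39, adjusted p = 0.00224). In other receptor genes *cfp-1* replicate 1 was far below the other *cfp-1* libraries. *srw-10* had 2.99, 10.4 and 9.36 CPM in *cfp-1* embryos, 0.699, 0.112 and 1.13 CPM in *set-2* embryos and 2.84, 2.48 and 3.47 CPM in wild-type embryos (3.48, SE 0.57, adjusted p = 0.00265). *srsx-7* had 0.460, 6.07 and 4.59 CPM in *cfp-1* embryos, against 0.0912, 0.0373 and 0.162 CPM in *set-2* embryos (5.11, SE 0.90, adjusted p = 0.00372). It lies beside *srsx-6* and *srsx-5* on chromosome V, from 7925783 to 7930416. *srsx-5* had 6, 67 and 36 counts in *cfp-1* libraries and 2, 0 and 3 in *set-2* libraries. Its mean *cfp-1* level was 15.5-fold that of 3 counts in each *set-2* library, a mean carried by *cfp-1* replicates 2 and 3, with replicate 1 far lower. These receptors are related in sequence, so reads could be shared or lost between them. *nhr-247*, a nuclear hormone receptor gene, also had *cfp-1* replicate 1 lowest, with 3.85, 35.5 and 36.8 CPM in *cfp-1* embryos, 2.37, 1.42 and 2.07 CPM in *set-2* embryos and 7.95, 2.15 and 5.69 CPM in wild-type embryos (3.69, SE 0.71, adjusted p = 0.00577).

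Some of the largest decreases were in genes at low levels in which *set-2* replicate 2 was the highest library. *R07E3.6* had 0.296, 0.338 and 0.116 CPM in *cfp-1* embryos, 1.22, 4.29 and 0.727 CPM in *set-2* embryos and 0.189, 0.0336 and 0.0369 CPM in wild-type embryos (-3.01, SE 0.75, adjusted p = 0.0168). The *set-2* libraries were the high ones, and *cfp-1* and wild-type libraries overlapped. The call was lost without *set-2* replicate 2 (-1.94) or *cfp-1* replicate 3 (-2.68), as was that of *Y37A1B.7* (-2.72, and -1.97 or -2.43 without these libraries), while that of *ZC374.2* (-2.95) was lost without *cfp-1* replicate 3 (-2.49). *B0205.4* had 0.263, 0.295 and 0.154 CPM in *cfp-1* embryos, against 1.79, 3.39 and 1.02 CPM in *set-2* embryos and 0.111 to 0.605 CPM in wild-type embryos (-3.09, SE 0.64, adjusted p = 0.00802), and its call held with any one library left out. *dyf-3*, a gene of intraflagellar transport in ciliated neurons, was also called with any one library left out, with 0.362, 1.05 and 0.385 CPM in *cfp-1* embryos, against 3.47, 6.86 and 3.28 CPM in *set-2* embryos and 0.984 to 1.27 CPM in wild-type embryos (-2.93, SE 0.44, adjusted p = 0.00184).

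Inducible heat-shock genes had the highest median of any list, 2.22 over 9 genes. Of these 3 (33.3%) were higher in *cfp-1* embryos and 1 (11.1%) was lower, against 12.1% and 9.86% of all genes tested. The number higher was 1 without *cfp-1* replicate 2, *cfp-1* replicate 3 or *set-2* replicate 1, 5 without *set-2* replicate 2 or *set-2* replicate 3, and 0 in a fit of the *cfp-1* and *set-2* libraries alone. *hsp-70* had 70.1, 135 and 74.6 CPM in *cfp-1* embryos, 16.5, 0.671 and 21.2 CPM in *set-2* embryos and 147, 98.7 and 113 CPM in wild-type embryos (2.85, SE 0.68, adjusted p = 0.0141). *hsp-16.2*, a small chaperone gene, had 274, 605 and 395 CPM in *cfp-1* embryos, 116, 5.26 and 115 CPM in *set-2* embryos and 512, 374 and 398 CPM in wild-type embryos (2.43, SE 0.72, adjusted p = 0.0332). The *set-2* libraries were the low ones in both genes, replicate 2 by far the lowest, and *cfp-1* and wild-type libraries overlapped for *hsp-16.2*. Its call was lost without *cfp-1* replicate 2 (2.08), *cfp-1* replicate 3 (2.48) or *set-2* replicate 1 (2.80). Its neighbour *hsp-16.41*, named after its values were seen, differed by 2.44 (adjusted p = 0.038), a call lost in 7 of the 11 fits that left out 1 library (1.88 to 2.82 over all 11), with near-identical copies of these genes in the genome between which reads may be split. The related genes *F44E5.4* and *F44E5.5* missed the threshold (2.24 and 2.22, adjusted p = 0.0547 and 0.0514) and passed it without *set-2* replicate 2 (1.68 and 1.67). Of 46 constitutive chaperone genes 9 (19.6%) were higher and none lower, with a median of 0.14, where all genes tested had 12.1% higher and 9.86% lower. Of these 46 genes 2 were higher with *cfp-1* replicate 3 left out, 4 with *set-2* replicate 1 left out.

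F-box and MATH-BTB genes, which encode adaptors that pick proteins for ubiquitination and belong to large families, were called about as often as genes at large. Of 211 F-box genes 22 were higher in *cfp-1* embryos (10.4%) and 15 lower (7.11%), and of 60 MATH-BTB genes 7 were higher (11.7%) and 8 lower (13.3%), against 12.1% and 9.86% of all genes tested. Single members differed widely. *fbxa-192* had 0.296, 0.422 and 0.424 CPM in *cfp-1* embryos, 1.98, 3.06 and 2.1 CPM in *set-2* embryos and 22.7, 26.1 and 23.8 CPM in wild-type embryos. It was thus far below wild-type in both mutants and lowest in *cfp-1* embryos, relative to *set-2* embryos (-2.64, SE 0.26, adjusted p = 0.000152). *fbxa-95* had 23.2, 18.5 and 20.4 CPM in *cfp-1* embryos, against 5.96, 5.33 and 5.79 CPM in *set-2* embryos and 6.999, 7.62 and 8.02 CPM in wild-type embryos (1.86, SE 0.15, adjusted p = 4e-05). *bath-1*, of the MATH-BTB family, had 0.756, 1.90 and 1.43 CPM in *cfp-1* embryos, against 5.75, 4.81 and 6.14 CPM in *set-2* embryos and 6.51, 9.43 and 10.1 CPM in wild-type embryos (-2.05, SE 0.30, adjusted p = 0.00168). Without *cfp-1* replicate 3 the F-box counts were 9 and 5 and the MATH-BTB counts 3 and 6, and without *set-2* replicate 1 they were 12 and 6, and 4 and 6. The balance of the F-box genes turned without *cfp-1* replicate 1, with 17 higher and 36 lower, and 9 were lower without *cfp-1* replicate 2.

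**Figure D5:**
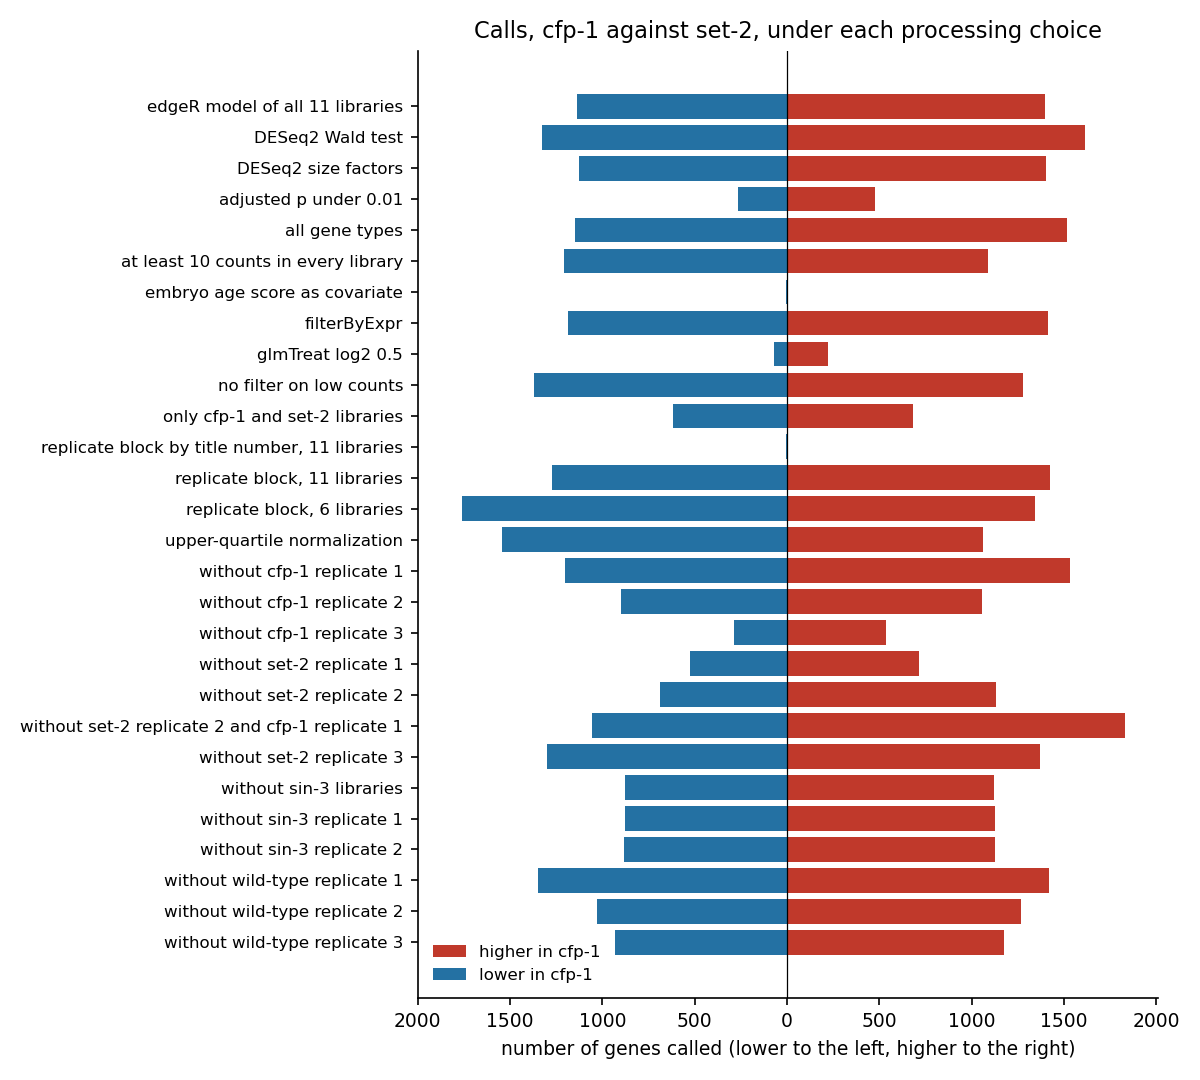
Number of genes called in each direction, *cfp-1* relative to *set-2* embryos, under each way of processing the counts. The main fit calls 1397 and 1138 genes, leaving out *cfp-1* replicate 3 gives 537 and 287, and the embryo age score as a covariate gives 4 and 6.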

How the data were processed

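Early embryo RNA-seq libraries of *cfp-1* (3), *set-2* (3), wild-type (3) and *sin-3* (2) were used. The authors mapped reads with STAR 2.4.1d to WS254, removed reads with a mapping score below 10 with SAMtools 0.1.19 and deposited the counts per gene from HTSeq 0.7.2, without normalization. Their deposited tables of DESeq2 fold changes against wild-type, p-values and mean counts were not used. Replicates are numbered by the sample descriptions, while the titles carry other numbers.

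Protein-coding genes (Ensembl release 115, WBcel235) with a mean TMM-normalized count above 10 were fitted with edgeR 4.0.16 in R 4.3.3, with a mean for each strain over the 11 libraries (7 residual degrees of freedom), and *cfp-1* minus *set-2* was tested with the quasi-likelihood test. The threshold was 0.05 for p-values adjusted after Benjamini and Hochberg. The pipeline was tested on simulated data. A gene at 3 counts or fewer in all libraries of a strain was given a bound.

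Named genes were, in each direction, the 8 with the largest change among those called whose libraries did not overlap and whose higher strain averaged at least 1 CPM, the 4 with the smallest p, up to 2 of each list with the smallest p, and all COMPASS and SIN3 complex genes. Others are marked as named after their values were seen, as were the genes still called in the age covariate fit. Members and lists were chosen with earlier results of these data known, and lists got no test of their own. The chemoreceptor list was narrowed after values were seen to drop kinases and serpins that its name pattern had caught.

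Alternatives were DESeq2 1.42.0, other normalizations, filters, gene types, thresholds and samples, each replicate left out, replicate blocks and an embryo age covariate. Leaving out *set-2* replicate 2 and *cfp-1* replicate 1 together was chosen after seeing the data. Promoter sequence was not used here. Figures were drawn with matplotlib 3.10.9.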

Additional observations from a re-analysis of the deposited data

How the results depend on the processing

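The main fit called 1397 genes at higher and 1138 at lower levels in *cfp-1* embryos, and no alternative called any of them in the opposite direction. Counts stayed within 1.5 times with DESeq2 (1613 and 1328), DESeq2's size factors (1404 and 1124), upper-quartile normalization (1063 and 1544, 40.8% higher), all gene types (1514 and 1149), filterByExpr (1412 and 1184), at least 10 counts in every library (1087 and 1206), no filter (1276 and 1372) and without *sin-3* (1120 and 878). They were 479 and 263 at an adjusted p under 0.01, 220 and 72 by edgeR's glmTreat against a log2 fold change of 0.5 and 680 and 616 in a fit of the *cfp-1* and *set-2* libraries alone. Leaving out one library gave 537 to 1532 genes higher and 287 to 1349 lower, the lowest of both without *cfp-1* replicate 3, with 717 and 526 without *set-2* replicate 1 and 1131 and 689 without *set-2* replicate 2. Leaving out *set-2* replicate 2 and *cfp-1* replicate 1, chosen after seeing the data, gave 1832 and 1056 (63.4% higher).

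Same-numbered libraries of the 2 strains correlated in their deviations from the strain means at r = 0.0945, 0.339 and 0.582 across genes. Libraries of unlike number correlated at -0.494 to 0.193. *set-2* replicate 1 correlated better with *cfp-1* replicate 3 (0.193) than with its own number, and the main fit did not pair the libraries. Over the 6 libraries the median standard error was 0.818 times that of the main fit with the replicate block and 1.11 times without it. Whether the numbers mark libraries made together is not known. With the replicate block the counts were 1423 and 1272 over 11 libraries and 1344 and 1760 over 6 libraries (43.3% higher). With the number in the sample titles as replicate block over 11 libraries, the counts were 5 and 4 (2255 at an unadjusted p under 0.05). In that fit 2 residual degrees of freedom remained, as with the replicate block over 6 libraries.

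The embryo age covariate left 4 and 6 genes, and 16 named genes that were called without it changed sign (those not called were not counted), to -0.0425 (*mes-2*), -0.10 (*sdha-2*), -0.0180 (*pbs-2*), -0.0151 (*math-18*), 0.0303 (*ceh-13*), 0.0183 (*cwn-2*), -0.17 (*let-99*), -0.26 (*gpa-16*), 0.17 (*ceh-22*), -0.17 (*pos-1*), -0.66 (*lin-41*), -0.48 (*pie-1*), -0.37 (*pgl-1*), -0.0273 (*csr-1*), -0.22 (*rpn-1*) and -0.0514 (*rpt-1*). The score is built from the maternal and zygotic lists and does not overlap between the strains, so it takes up part of the strain difference by construction. Causes of the other shifts were not tested. Depth limits the genes near 3 counts, whose folds are bounds, and 3 libraries a strain limit the small differences.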

Other observations

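Single signalling, metabolic and sperm genes also differed between the 2 mutants. Among 37 Wnt and Notch genes, *cfp-1* embryos had 6 at higher (16.22%) and 5 at lower (13.5%) levels than *set-2* embryos, against 12.1% and 9.86% of all genes tested. *mom-2*, the Wnt ligand that polarizes the endoderm precursor, had 307, 244 and 284 CPM in *cfp-1* embryos, 152, 190 and 164 CPM in *set-2* embryos and 148, 163 and 160 CPM in wild-type embryos (log2 difference 0.72, SE 0.12, adjusted p = 0.00252 from edgeR, with Benjamini-Hochberg adjustment). *apx-1*, a Notch ligand of early blastomeres, had 132, 123 and 146 CPM in *cfp-1* embryos, against 74.8, 94.7 and 90.1 CPM in *set-2* embryos (0.63). Both are supplied by the mother. *cwn-2*, a Wnt gene of later stages, was lower in *cfp-1* embryos, with 31.9, 23.4 and 24.6 CPM, against 46.8, 52.1 and 39.8 CPM in *set-2* embryos (-0.79). Without *cfp-1* replicate 3 the Wnt and Notch counts were 4 and 1, and the number lower was 1 to 3 when *cfp-1* replicate 2, *set-2* replicate 1 or 2, either *sin-3* library or wild-type replicate 2 was left out. Of 20 polarity genes 4 were higher and 2 lower, and the number higher was 1 without *cfp-1* replicate 2, *cfp-1* replicate 3 or *set-2* replicate 1 and 2 without *set-2* replicate 2. The paralogs *gpr-1* and *gpr-2*, which position the mitotic spindle and share much of their sequence, differed by -0.46 and -0.47, and *let-99*, which acts in the same process, by 0.85.

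Fatty acid metabolism had 50 genes tested, 9 of them higher in *cfp-1* embryos and 11 lower, and these counts were 4 and 3 without *cfp-1* replicate 3 and 4 and 5 without *set-2* replicate 1. *acs-15*, an acyl-CoA synthetase gene, had 11.6, 9.32 and 7.09 CPM in *cfp-1* embryos, 1.64, 0.112 and 1.91 CPM in *set-2* embryos and 12.4, 8.12 and 9.64 CPM in wild-type embryos (2.89, SE 0.54, adjusted p = 0.00485), so that *set-2* embryos stood apart, replicate 2 lowest. The insulin-like gene *ins-30* had 2.401, 20.8 and 12.5 CPM in *cfp-1* embryos, against 0.973, 0.448 and 1.56 CPM in *set-2* embryos and 4.90 to 8.06 CPM in wild-type embryos (3.54, SE 0.65, adjusted p = 0.0046). Of 19 sperm genes tested 6 (31.6%) were higher and 2 (10.5%) lower, against 12.1% and 9.86% of all genes tested. None was lower without *cfp-1* replicate 3 or *set-2* replicate 1. Among those higher was *spe-47*, with 2.79, 4.64 and 4.59 CPM in *cfp-1* embryos, against 0.699, 0.932 and 1.13 CPM in *set-2* embryos and 2.79 to 3.67 CPM in wild-type embryos (2.11, SE 0.29, adjusted p = 0.00117). The centromeric histone gene *cpar-1* and the polo-like kinase gene *plk-2* were higher in *cfp-1* embryos by 0.87 and 0.74, while *plk-3* was lower. None of 13 dosage compensation genes was called, with 0 higher and 0 lower, and 1 of 16 synMuv B and DREAM genes was, against 22.0% of all genes tested. The gene called was *lin-35*, the retinoblastoma counterpart, at -0.30 (adjusted p = 0.0295). Its call was lost in 5 of the 11 fits that left out 1 library (-0.36 to -0.26 over all 11), *cfp-1* replicate 3 and *set-2* replicate 2 among them.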
